A study of Gallus gallus with 6 samples.

Results

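The 76 genes described here encode proteins of the extracellular matrix: collagen chains, laminin chains and the glycoproteins and proteoglycans that surround migrating cells. They were taken by gene symbol from the platform annotation, as every gene named like a collagen or laminin chain plus 24 named matrix genes, out of 13009 genes with a symbol of their own on the array. The rule itself uses no values, but it was set with earlier results of these data known. Each gene was read by 1 probe set, the one with the highest mean over the 6 arrays, out of 212 probe sets for these genes. The samples were RNA from cultures of chicken neural crest cells, the migratory cells of the early embryo, grown out of neural tube explants of stage 9+ embryos. After 4 h in culture the cells received either media (control, 3 arrays) or homocysteine at 100 uM (3 arrays), and both groups were harvested 6 h later. Homocysteine is a sulfur amino acid formed in the methionine cycle, and the comparison asks which transcripts differ after this exposure. The title of each sample gives a group and a number from 1 to 3, and nothing says that the arrays came from separate cultures, so each p-value reflects the spread of these 6 arrays, part or all of which may be technical.

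Neural crest cells leave the neural tube through a basement membrane, a thin sheet in which laminin trimers of an alpha, a beta and a gamma chain and networks of type IV collagen are joined by nidogen and heparan sulfate proteoglycans. They then move over interstitial matrix, in which fibronectin favours migration and in which fibrillar collagens form the tensile fibres, while versican and related proteoglycans mark spaces that crest cells avoid. Fibrillar collagen molecules are triple helices, and fibril-associated collagens, thrombospondins, tenascins and small leucine-rich proteoglycans bind to the resulting fibres.

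The values are linear array intensities as deposited, with the same trimmed mean of 500.1 on every array, and a value after ± is the SD over the 3 arrays of a group. A gene is called above background where its intensity exceeded the 95th percentile of 57 reporter probe sets, which detect sequences foreign to the chicken, on at least 3 of the 6 arrays. That percentile was 53.68, 64.32 and 65.62 on the control arrays and 77.16, 84.88 and 53.24 on the homocysteine arrays. Counts of arrays above background by group therefore rest on unlike cutoffs. The arrays numbered 1 stood apart in both groups, where the 5' probe set of ACTB read 0.0572 and 0.059 of the 3' one, against 0.238 to 0.421 on the other 4. For GAPDH the ratio was 0.318 and 0.324 on the arrays numbered 1 and 0.456 on homocysteine 3. It was 0.663 to 0.694 on control 2, control 3 and homocysteine 2. Of 8 neural crest markers, 8 were above background, but so were 5 of 5 measured markers of neural tube, 5 of 5 of surface ectoderm and 5 of 5 of notochord. The same held for 5 of 8 of blood and endothelium and 3 of 7 of mesoderm and somite. Matrix transcripts therefore cannot be assigned to crest cells alone. In RNA from whole cultures, fewer cells of a type and less RNA per cell cannot be told apart.

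Of the 76 matrix genes, 54 (71.1%) were above background, 45 of them on all 6 arrays, compared with 72.9% of all genes. No matrix gene passed an adjusted p of 0.05 between homocysteine and control (limma, Benjamini-Hochberg over all 38382 probe sets). Across the array the share called was also 0%, with 3.97% of probe sets at an unadjusted p under 0.05. The adjusted p was 0.9999 for each of the 76 genes. At an unadjusted p under 0.05, 0 of the 76 genes were found, against 2.26% of all genes (1.4% higher and 0.861% lower). The count was also 0 among the 54 above background, against 0.569% of all genes above background (0.337% higher and 0.232% lower). The 2 groups overlapped in the chosen probe set of every one of the 76, where 5.53% of all genes showed no overlap. With the arrays numbered 1 as a batch in the fit, and within the other 4 arrays, the count passing was 0 as well.

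Among the 54 genes above background, 21 log2 changes were positive and 33 negative, with a median of -0.072, and the changes ran from -0.52 to 0.73. The same median over the 9485 genes above background was 0.0016, with 49.6% negative, against 61.1% here. The matrix median was -0.0024 within the 4 arrays numbered 2 and 3, where the arrays with the lowest 5' to 3' ratios are absent but homocysteine 3 remains. For a typical matrix gene the 95% interval reached 0.95 to either side of its log2 change.

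**Figure D1:**
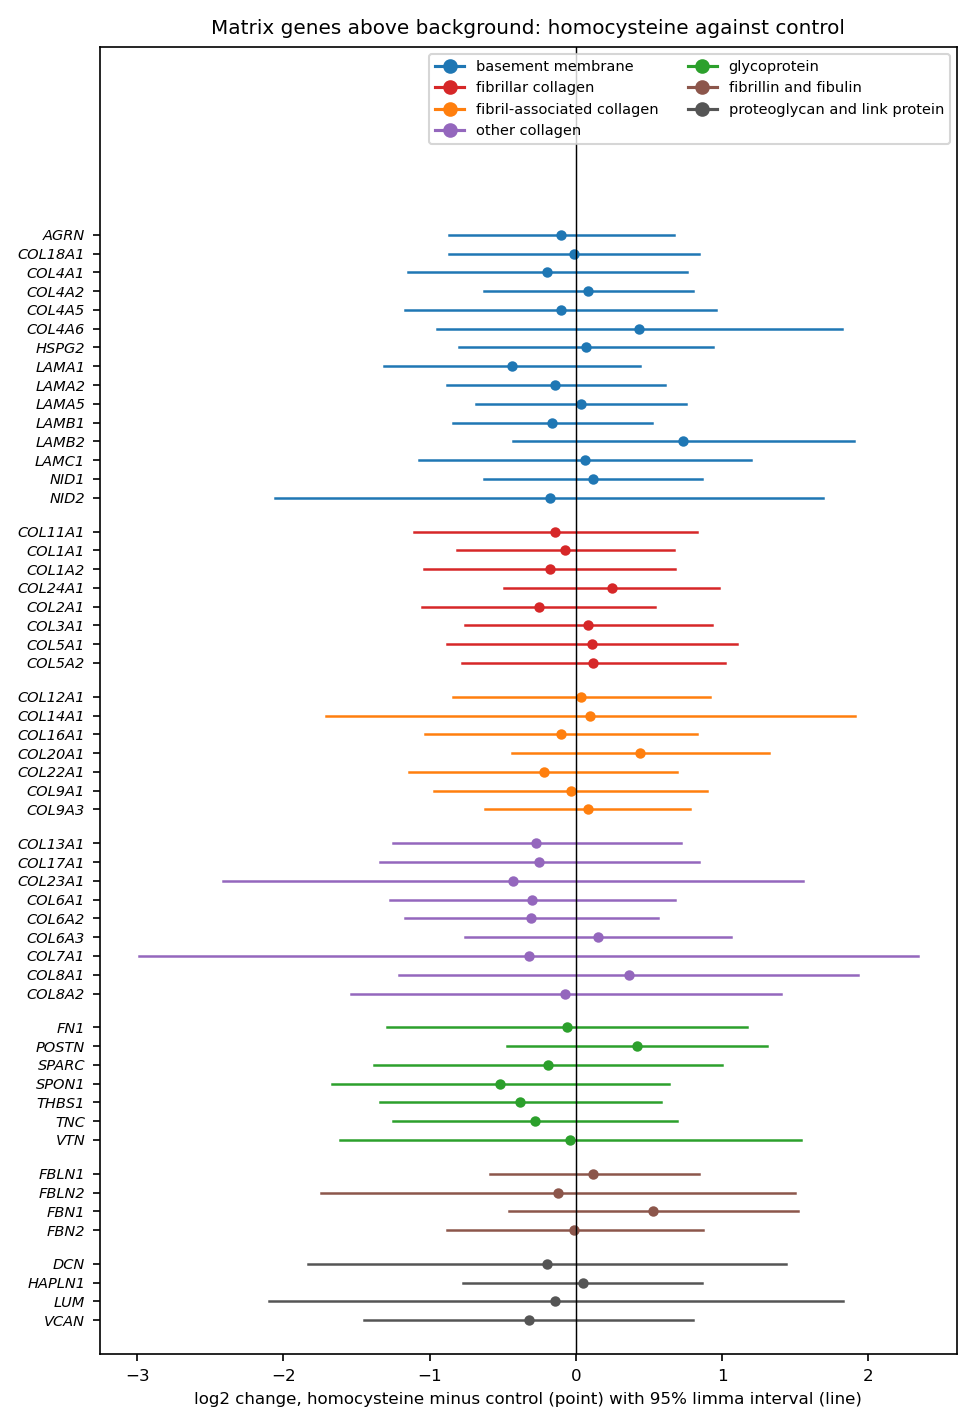
Log2 change of intensity, homocysteine minus control, for the 54 matrix genes above background (points), with the 95% limma interval (lines), coloured by class. Every interval spans 0, and the points lie between -0.52 for SPON1 and 0.73 for LAMB2.

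Laminin chains were detected in each of the positions of the trimer, and none passed the test between the groups. LAMB1, the beta chain of the trimers first made in embryos, read 7974.5, 6197.3 and 6856.1 in control and 7343.4, 5463.8 and 6086.4 with homocysteine. The array numbered 1 was the highest in both groups, and the groups overlapped, with a log2 change of -0.16 (95% limits -0.84 and 0.52). LAMC1, the gamma chain shared by most laminins, read 9868, 4621.5 and 4902.1 in control and 9237, 4215.5 and 6564.5 with homocysteine. Here too the arrays numbered 1 were the highest, and they stood further from the rest than either group stood from the other, with a log2 change of 0.064 (95% limits -1.07 and 1.2).

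The alpha chains, which carry the cell-binding end of the laminin trimer, were represented by LAMA1, LAMA2 and LAMA5. LAMA1, an alpha chain of early embryonic basement membranes, read 271.5, 341.2 and 312.2 in control and 282.8, 278.6 and 148.5 with homocysteine. Homocysteine 3 lay apart as the lowest array, with a log2 change of -0.44 (95% limits -1.31 and 0.44). A dimmer LAMA1 probe set above background on all arrays had means of 259.1 in control and 189.6 with homocysteine, with homocysteine 3 again the lowest array. Another LAMA1 set, above background on 4 arrays, had the opposite sign, with means of 86.27 in control and 89.53 with homocysteine. Its lowest array was control 2. LAMA5, an alpha chain made widely in embryonic epithelia, gave 1888 ± 311.5 in control and 1931 ± 306.2 after treatment, and LAMA2, the alpha chain best known from muscle, gave 87.77 ± 14.11 in control and 80.5 ± 16.83 after treatment and was above background on 5 of 6 arrays. LAMB2, a beta chain known from the kidney filter and the neuromuscular junction, had the smallest p of the 54 genes. It read 91.3, 176.7 and 53.9 in control and 147.8, 161.7 and 166.5 with homocysteine. Control 3 lay below background at 53.9, and the 3 homocysteine arrays lay below control 2. The log2 change, 0.73 (95% limits -0.43 and 1.9), had an unadjusted p of 0.175. It was 0.32 without control 3, 1.18 without control 2, and 0.07 with the mean of all LAMB2 probe sets.

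Type IV collagen, the network-forming collagen of basement membranes, was read by 4 chains above background. COL4A1, 1 of the 2 chains of the most common type IV molecule, read 1305.6, 659.6 and 777.2 in control and 899.5, 557.4 and 882 with homocysteine. Control 1 was the highest array, homocysteine 2 the lowest, and the log2 change was -0.2 (95% limits -1.15 and 0.76). Its partner COL4A2 read 1679.5, 1082.9 and 1314.2 in control and 1572.5, 1351.9 and 1343.7 with homocysteine, which gave a log2 change of 0.086 (95% limits -0.63 and 0.8). COL4A5, a chain of the specialised type IV networks, gave 2153 ± 809 in control and 2016 ± 772.5 after treatment. COL4A6, which pairs with COL4A5, lay near background, at 31.5, 85.9 and 112.9 in control and 118.9, 100.9 and 62.9 with homocysteine. It was above background on 2 of 3 control and 3 of 3 homocysteine arrays, and control 1 was the lowest array. The log2 change was 0.43 (95% limits -0.95 and 1.82), and without control 1 and homocysteine 1 it was -0.31.

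The linkers and proteoglycans of the basement membrane also varied between the arrays of a group, though not all were high on the same arrays. NID1, a nidogen that bridges laminin and type IV collagen, gave 2843 ± 429.9 in control and 3113 ± 713.9 after treatment. NID2, the other nidogen, read 175.4, 578.6 and 920.1 in control and 198.3, 677.4 and 474.3 with homocysteine. Both arrays numbered 1 lay far below the other 4, so that the difference between arrays of a group was several times that between the groups. AGRN, the heparan sulfate proteoglycan agrin, gave 2284 ± 583.3 in control and 2105 ± 365.6 after treatment, and HSPG2, which encodes perlecan, gave 211.2 ± 57.07 in control and 219.7 ± 50.14 after treatment. COL18A1, whose product carries heparan sulfate and is the source of endostatin, gave 4794 ± 1037 in control and 4802 ± 1371 after treatment.

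Of 9 fibrillar collagen genes, 8 were above background on all 6 arrays. COL1A1 and COL1A2 encode the chains of type I collagen, the main fibre of connective tissue. COL1A1 read 837.9, 594.2 and 926.4 in control and 827.3, 743.5 and 646.9 with homocysteine. Neither group was uniformly higher, and the log2 change was -0.071 (95% limits -0.81 and 0.67). COL1A2 read 1071.7, 1552.5 and 1948.3 in control and 1042.2, 1618.2 and 1325.8 with homocysteine. The arrays numbered 1 were the lowest pair for COL1A2 but not for COL1A1, and the COL1A2 log2 change was -0.18 (95% limits -1.04 and 0.68). Of its 2 dimmer probe sets above background, 1 had the opposite sign, with means of 926.6 in control and 1015 with homocysteine, and the other the same sign, at 164.3 and 144.5.

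COL3A1, the type III chain found with type I in soft tissues, gave 698.5 ± 164.3 in control and 745.4 ± 212.2 after treatment. COL5A1, a type V chain that starts and limits the width of type I fibres, read 1981.9, 3352.1 and 3480.1 in control and 2107.3, 3235.8 and 4240.6 with homocysteine. The arrays numbered 1 were again the lowest pair, in contrast to COL5A2, its partner chain, which read 2393.1, 1321.7 and 1113.7 in control and 1657.9, 1557.7 and 1756.8 with homocysteine and was highest on control 1. COL2A1, the cartilage collagen that is also made by the notochord and neuroepithelium of early embryos, read 676.4, 751.1 and 1204.4 in control and 659.1, 711.4 and 773 with homocysteine. Control 3 stood above the other 5 arrays, and the log2 change was -0.25 (95% limits -1.05 and 0.54). COL11A1, a minor fibrillar chain found with type II collagen, gave 276.3 ± 64.55 in control and 257.5 ± 97.83 after treatment. COL24A1, a less studied fibrillar chain, had the smallest p of this class, 0.442. It read 1004.7, 804.1 and 1161.9 in control and 959.6, 1202.5 and 1354.7 with homocysteine, a log2 change of 0.25 (95% limits -0.49 and 0.98).

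Basement membrane genes and fibrillar collagens were compared by their log2 changes, since intensities of different probe sets cannot be set against each other. The 15 basement membrane genes above background had 7 positive and 8 negative changes with a median of -0.015. The 8 fibrillar collagens had 4 of each sign with a median of 0.0071. To follow the classes over arrays, each gene was centred on its own mean over the 6 arrays and the centred log2 values were averaged. The basement membrane mean lay between -0.05 and 0.04 on all arrays. The fibrillar mean ranged more, from -0.15 on homocysteine 1 to 0.19 on control 3. Single genes varied far more than these means. Centred values ran from -1.314 (COL4A6, control 1) to 1.112 (NID2, control 3) among basement membrane genes. Among fibrillar collagens they ran from -0.606 (COL11A1, homocysteine 1) to 0.63 (COL2A1, control 3). Basement membrane minus fibrillar was 0.03, 0.09 and -0.16 on control arrays 1 to 3 and 0.19, -0.05 and -0.1 on the homocysteine arrays, so the sign varied within each group and the groups overlapped.

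**Figure D2:**
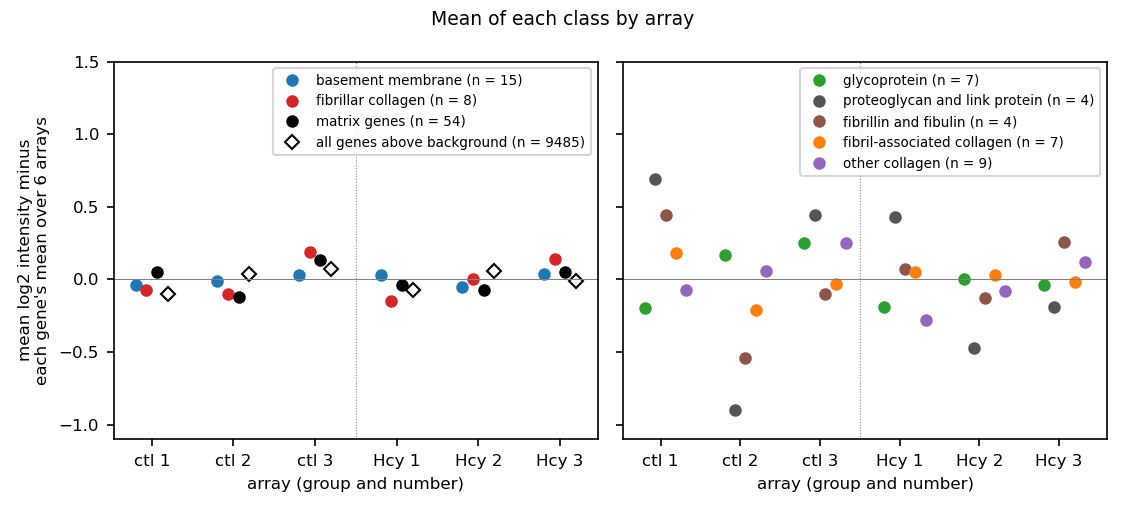
Mean log2 intensity of each class on each array, after each gene was centred on its own mean over the 6 arrays (left, basement membrane, fibrillar collagens, all 54 matrix genes and all genes above background; right, the other classes). The mean of the basement membrane genes stays between -0.05 and 0.04, while that of the 4 proteoglycan and link protein genes reaches 0.69 on control 1 and -0.9 on control 2.

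The fibril-associated collagens, which sit on the surface of collagen fibres, had 7 of 10 genes above background, with 4 positive and 3 negative changes and a median of 0.038. COL9A1 and COL9A3, chains of the type IX collagen that decorates type II fibres, gave 845.1 ± 307.3 in control and 804.4 ± 200.6 after treatment for COL9A1 and 945.6 ± 107.1 in control and 1008 ± 195.2 after treatment for COL9A3. The COL9A3 log2 change was 0.081 (95% limits -0.62 and 0.78). COL9A2, the remaining chain of that molecule, was not above background on any array. COL14A1, a collagen of embryonic connective tissue, read 448.5, 87.9 and 374.8 in control and 264.4, 159.9 and 432 with homocysteine. Its 2 lowest arrays were those numbered 2, and it spanned 5.1-fold over the 6 arrays. COL12A1 gave 209.7 ± 71.67 in control and 210.9 ± 43.41 after treatment, COL16A1 117.1 ± 28.65 in control and 111.3 ± 39.44 after treatment, and COL22A1 304.6 ± 108.7 in control and 252.8 ± 46.62 after treatment. The COL22A1 log2 change was -0.22 (95% limits -1.14 and 0.69). COL20A1 read 61.9, 74.6 and 64.7 in control and 110.1, 115.6 and 58.9 with homocysteine. All 6 values lay near background, homocysteine 1 and 2 were the highest, and the log2 change was 0.44 (95% limits -0.44 and 1.32).

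Other collagens had 2 positive and 7 negative changes among 9 genes above background, with a median of -0.27. Of 4 type VI chains, which form beaded microfibrils around cells, 3 were above background, and COL6A6 was above it on 1 array. COL6A1 read 107.8, 65.5 and 56.4 in control and 64.7, 42.6 and 78.1 with homocysteine, above background on 3 of 6 arrays, and COL6A2 read 78, 142.5 and 149.6 in control and 106.8, 94 and 87.3 with homocysteine. Both had a negative change, -0.3 for COL6A1 and -0.31 for COL6A2, with intervals from -1.27 to 0.68 and from -1.17 to 0.56. COL6A3 gave 336.7 ± 122.8 in control and 354.6 ± 20.23 after treatment. COL23A1, a transmembrane collagen, read 2356.6, 382.2 and 1011.5 in control and 1540.5, 457.1 and 526.8 with homocysteine. It spanned 6.17-fold, highest on the arrays numbered 1 and lowest on those numbered 2. COL13A1, a transmembrane collagen of cell adhesion sites, read 300.5, 298.1 and 270.8 in control and 323.6, 140.9 and 305.8 with homocysteine, with homocysteine 2 as the low array and a log2 change of -0.27 (95% limits -1.25 and 0.72). COL17A1, a collagen of epithelial hemidesmosomes, gave 151.7 ± 29.73 in control and 136.1 ± 60.08 after treatment, and COL8A2, a short-chain network collagen, 227.4 ± 146.6 in control and 184.2 ± 38.39 after treatment. COL8A1, its partner, and COL7A1, which forms the anchoring fibrils of skin, were above background on 4 of 6 arrays each. COL8A1 read 24, 120.2 and 93 in control and 79.8, 81.2 and 87.4 with homocysteine. COL7A1 read 65.4, 140.7 and 52.3 in control and 11.6, 139 and 152.6 with homocysteine. It counts as negative in log2, but its mean intensity was 86.13 in control and 101.1 with homocysteine. Homocysteine 1, at 11.6, lay far below the cutoff of 77.16. COL8A1 counts as positive, with control 1, at 24, below the cutoff of 53.68. With dim values raised to background the COL6A1 change was 0.048. The signs and the median of this class rest in part on values below background.

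In the glycoprotein class, 7 of 9 genes were above background, with 1 positive and 6 negative changes and a median of -0.19. FN1, which encodes fibronectin, read 10337.6, 4259.6 and 7211.9 in control and 9890.6, 3955.6 and 7141 with homocysteine. Each homocysteine array lay close to the control array of the same number, whereas the arrays numbered 1 read more than 2 times those numbered 2. The log2 change was -0.062 (95% limits -1.29 and 1.17). SPARC, a collagen-binding protein of remodelling tissue, read 1342.2, 3151.7 and 3339 in control and 1434.1, 2726 and 2437.3 with homocysteine. The arrays numbered 1 were the lowest pair, the reverse of FN1, and the log2 change was -0.19 (95% limits -1.38 and 1.0). VTN, which encodes vitronectin, an integrin ligand, had the same 2 lowest arrays, at 1042.4, 2656.3 and 2183.7 in control and 777, 2890.5 and 2494.3 with homocysteine.

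POSTN, which encodes periostin, a matrix protein of mesenchyme, had the smallest p of the glycoproteins, 0.289. It read 1603.2, 844.8 and 1193.5 in control and 2015.5, 1274.1 and 1513.7 with homocysteine. The groups overlapped, since control 1 exceeded homocysteine 2 and 3, and the log2 change was 0.42 (95% limits -0.47 and 1.31). A dimmer POSTN probe set gave 167.3 in control and 216.9 with homocysteine. SPON1, which encodes F-spondin, a floor plate protein, read 534.8, 1076.8 and 1499.2 in control and 508.8, 657.2 and 883.1 with homocysteine. Control 2 and 3 were the 2 highest arrays and homocysteine 1 the lowest, and the log2 change was -0.52 (95% limits -1.67 and 0.64). TNC, the tenascin made along crest pathways, lay near background at 89, 169.1 and 87.7 in control and 78.3, 123 and 76.6 with homocysteine. THBS1, an adhesion-modulating thrombospondin, was above background on 3 control arrays and 1 homocysteine array, at 71.4, 86.4 and 84.6 in control and 92.9, 66 and 38.9 with homocysteine, with a log2 change of -0.38 (95% limits -1.34 and 0.58). The cutoff on homocysteine 2 was 84.88, and the value of 66 there lay above the cutoff of every control array.

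**Figure D3:**
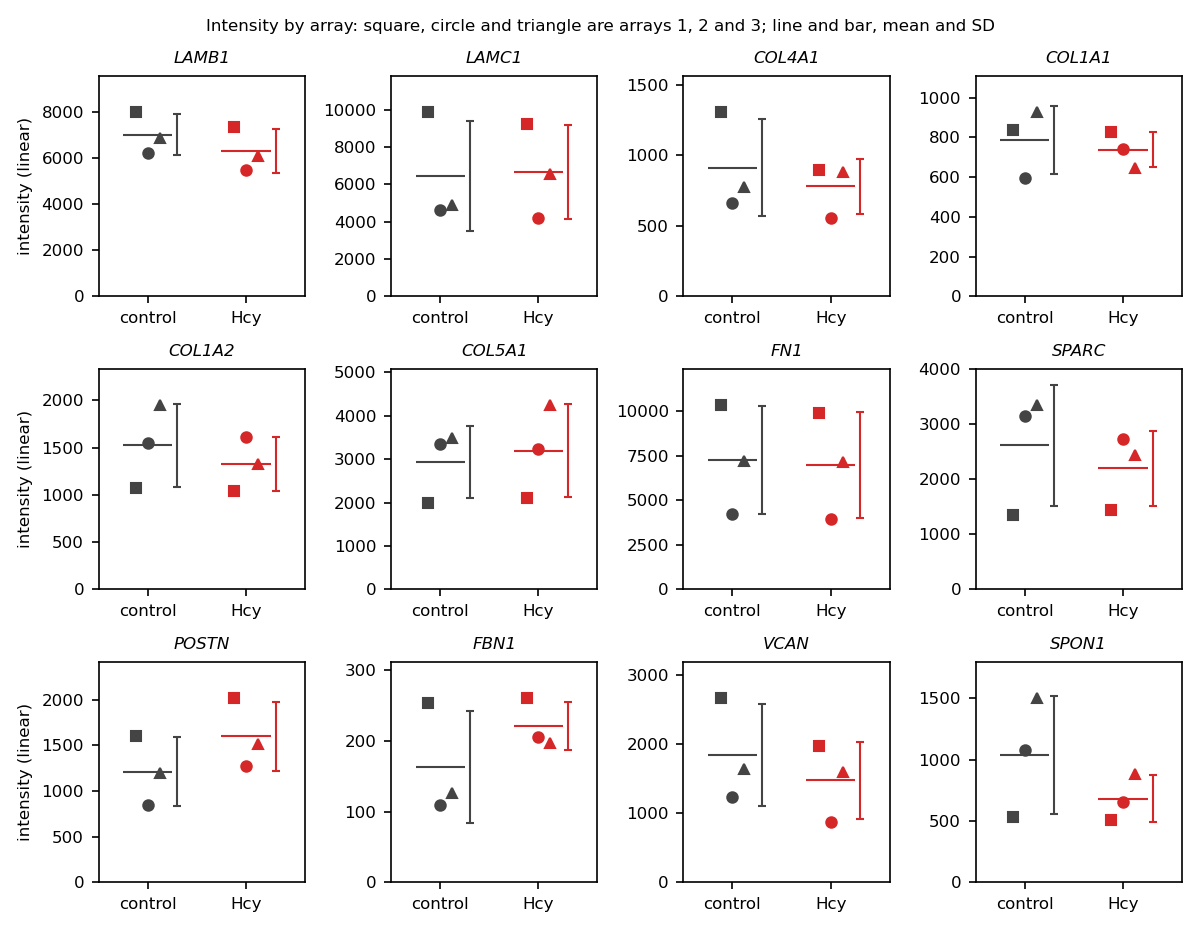
Linear intensity of 12 matrix genes on each array, control (grey) and homocysteine (Hcy, red), with squares, circles and triangles for the arrays numbered 1, 2 and 3, and lines and bars for mean and SD (n = 3). In LAMC1 and FN1 the squares are the highest and the circles the lowest in both groups, and in SPARC the squares are the lowest.

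Fibrillins form the microfibrils on which elastin is laid down, and fibulins bind to them and to basement membranes. Of 5 genes 4 were above background, with 2 positive and 2 negative changes. FBN1, the main fibrillin, read 254.4, 109.2 and 126.7 in control and 260.6, 206.3 and 196.9 with homocysteine. Control 1 lay near the top of the homocysteine values, while control 2 and 3 lay below all 3, and the log2 change was 0.53 (95% limits -0.46 and 1.52). Within the 4 arrays numbered 2 and 3 the log2 change was 0.78, and with the mean of all FBN1 probe sets it was 0.32. The dimmer FBN1 sets were above background on 0 arrays. FBN2, the fibrillin of early development, gave 126.6 ± 21.14 in control and 129.5 ± 44.47 after treatment. Its dimmer probe sets disagreed in direction. The set above background on 5 arrays had means of 56.87 in control and 97.2 with homocysteine. The set above background on 3 arrays had means of 98.8 and 64.83. FBLN1, a fibulin of embryonic connective tissue, read 5264, 4284.3 and 4737.9 in control and 4493.8, 4645.4 and 6615 with homocysteine, with homocysteine 3 as the highest array and a log2 change of 0.12 (95% limits -0.59 and 0.84). FBLN2 read 1833.5, 373.1 and 1296.8 in control and 1192.1, 626 and 926.7 with homocysteine. It varied 4.91-fold over the arrays, with the arrays numbered 2 as the lowest pair, and its log2 change was -0.12 (95% limits -1.74 and 1.5).

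Of 6 genes for proteoglycans and a link protein 4 were above background, with 1 positive and 3 negative changes and a median of -0.17. VCAN, which encodes versican, the large proteoglycan of spaces that crest cells avoid, read 2668.6, 1233.8 and 1646.6 in control and 1972.2, 877.3 and 1594.3 with homocysteine. Arrays numbered 1 were the highest pair and arrays numbered 2 the lowest, and the log2 change was -0.32 (95% limits -1.45 and 0.8). A second VCAN probe set gave 1201 in control and 1211 with homocysteine. LUM, which encodes lumican, a small leucine-rich proteoglycan, read 1211.7, 219.8 and 1020.8 in control and 1161, 489.4 and 360.8 with homocysteine, a log2 change of -0.14 (95% limits -2.1 and 1.83). DCN, which encodes decorin, of the same family, read 852.5, 226.8 and 897.5 in control and 700.6, 286.4 and 572.6 with homocysteine, a log2 change of -0.2 (95% limits -1.83 and 1.44). Both were far lower on control 2 than on the other control arrays, so that the SD in control, 526.3 for LUM and 374.9 for DCN, exceeded the difference between the group means. HAPLN1, the link protein that holds proteoglycans on hyaluronan, gave 580 ± 165.8 in control and 583.3 ± 61.26 after treatment.

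The arrays numbered 1 often lay together at the same end of the range, while those numbered 3 seldom did. In 14 of the 54 genes (25.9%) the 2 arrays numbered 1 were the 2 highest, and in another 14 (25.9%) the 2 lowest, against 21.1% and 24.5% of all genes above background. In 12 genes (22.2%) the arrays numbered 2 were the 2 lowest, against 15.4%, and in 4 (7.41%) the 2 highest, against 16.6%. The arrays numbered 3 were the 2 lowest in 1 gene (1.85%), against 7.1%, and the 2 highest in 4 (7.41%), against 8.97%. Basement membrane genes had the arrays numbered 1 on top in 6 of 15 (AGRN, COL4A1, COL4A2, COL4A5, LAMB1 and LAMC1) and at the bottom in 4 (COL18A1, HSPG2, LAMA2 and NID2). Fibrillar collagens had them on top in 1 of 8 (COL3A1) and at the bottom in 4 (COL11A1, COL1A2, COL2A1 and COL5A1). These counts describe 6 arrays and were not tested.

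The mean log2 intensity on the arrays numbered 1 minus that on the other 4 was 0.932 for LAMC1, 0.898 for FN1, 1.41 for LUM and 1.79 for COL23A1. It was -1.79 for NID2, -1.5 for VTN and -1.06 for SPARC. The mean on the arrays numbered 2 minus that on the other 4 was -1.65 for COL14A1, -1.55 for DCN, -1.5 for COL23A1, -1.4 for FBLN2 and -1.37 for LUM. Some marker lists differed between the numbers. The 8 neural crest markers summed to an intensity of 7114.8 and 7676.9 on the control and homocysteine arrays numbered 1, while the other 4 arrays gave 15206.1 to 16304.9, and in 6 of the 8 (SOX10, FOXD3, SNAI2, ETS1, PAX7 and TFAP2B) these were the 2 lowest arrays. In 4 of 5 neural tube markers (SOX2, PAX6, SOX1 and SOX3) they were the 2 lowest as well. The 5 measured surface ectoderm markers (CDH1, EPCAM, TP63, GRHL3 and KRT7) summed to 5046.6 and 5877.8 on the arrays numbered 2, while the other 4 gave 8889.2 to 13321. CDH1, EPCAM and KRT7 had these as their 2 lowest arrays, whereas TP63 and GRHL3 did not, and GRHL3 was highest on control 2. Sums of other lists varied between arrays too. The 5 notochord markers summed to 1218.9, 1658.8 and 1324.9 in control and 2180.8, 1497.6 and 1729.4 with homocysteine, so that in the sum number 1 was the lowest control and the highest treated array. TBXT alone gave 1363 of the sum on homocysteine 1. Among the treated arrays TBXT, NOG and CHRD were highest on number 1, whereas FOXA2 was highest on number 2 and SHH was lowest on number 1. The 7 measured mesoderm and somite markers summed to 428.6, 294.2 and 841.5 in control and 442.5, 433.8 and 530.8 with homocysteine. In this sum the arrays numbered 3 were the 2 highest, but that held for only 1 of the 7 markers (FOXC2). MEOX1 read 299.6 on homocysteine 1 and 247.3 on homocysteine 3. The 8 of blood and endothelium summed to 2017.4, 1413.8 and 1823.9 in control and 1732.2, 1664.9 and 1307.2 with homocysteine. Number 1 was the highest array within each group there. The 5' to 3' ratios of ACTB and GAPDH were lowest on the arrays numbered 1, and homocysteine 3 came next for both. The part of cell makeup and RNA quality in these values was not tested.

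**Figure D4:**
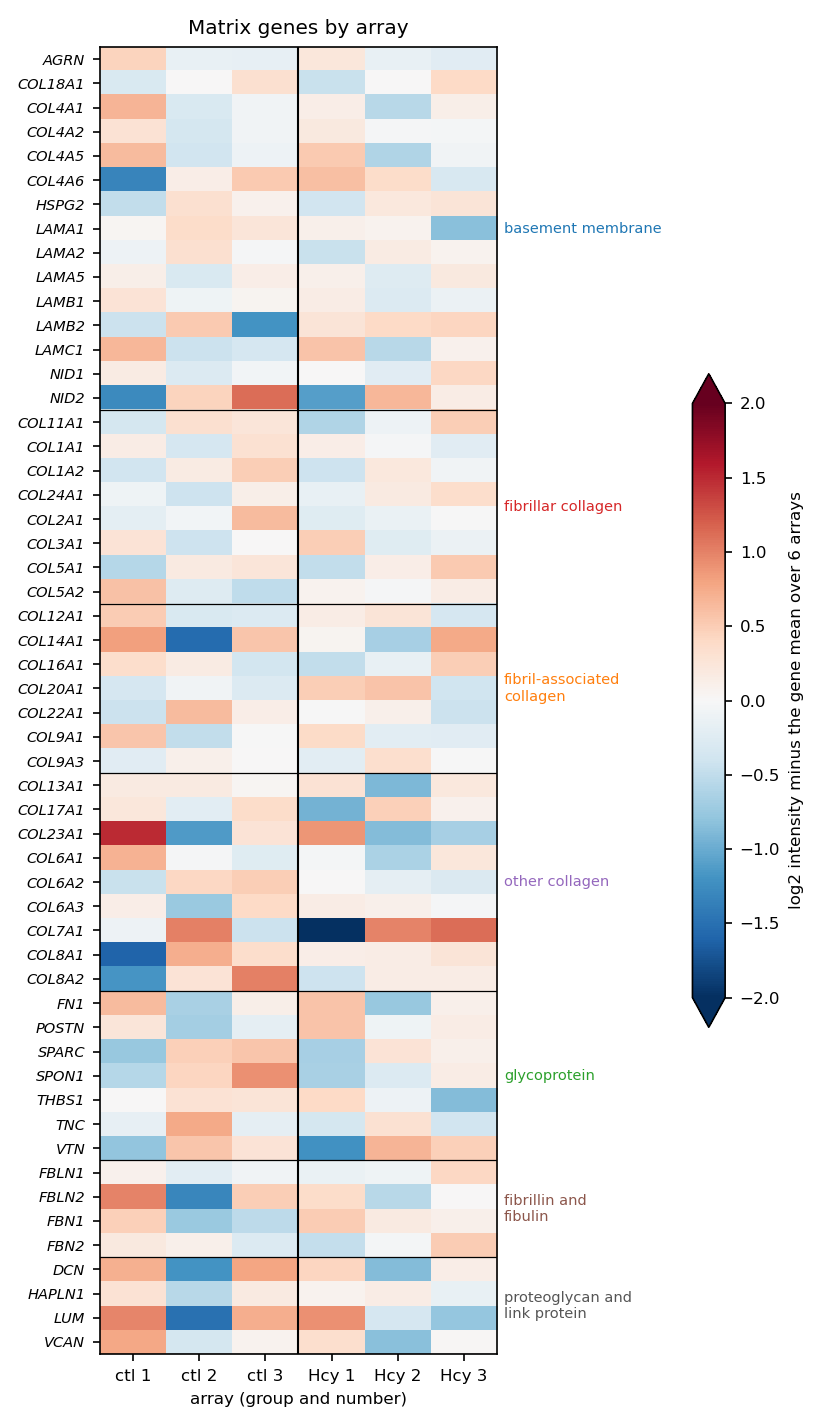
Log2 intensity of the 54 matrix genes above background on each array, minus the gene's mean over the 6 arrays (red higher, blue lower; values past 2 in size are shown at the end of the scale), with control (ctl) left and homocysteine (Hcy) right of the line. The columns numbered 1, and likewise those numbered 2, look alike for LAMC1, COL23A1, FN1, SPARC and NID2. Both arrays numbered 1 are red for LAMC1 and FN1 and blue for SPARC and NID2. The columns numbered 3 differ in sign for LAMC1 and COL23A1.

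Several matrix genes lie next to each other in the RefSeq gene order of assembly GRCg7b, which was used for names and order only. There were 8 such pairs, 5 of them with both genes above background. In the mean log2 intensity on the arrays numbered 1 minus that on the rest, LUM and DCN were both positive, at 1.41 and 0.854. So were COL4A1 and COL4A2, at 0.613 and 0.358, and COL5A2 and COL3A1, at 0.492 and 0.575. Single arrays did not all follow these means. DCN was highest on control 3, and COL5A2 was higher on homocysteine 3 than on homocysteine 1. In the pair COL4A5 and COL4A6 the same quantity was 0.857 and -0.533, and in COL6A1 and COL6A2 it was 0.496 and -0.333. For COL4A6 it averages the lowest array, control 1, with the highest, homocysteine 1. The sign was shared in 3 of the 5 pairs, a count that was not made for other neighbouring genes and was not tested.

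The remaining 22 genes were above background on fewer than 3 arrays, 12 of them on none, with intensities between 1.9 and 102.8, and no fold is given for them. They were the basement membrane genes COL15A1, COL4A3, COL4A4, LAMA3, LAMA4, LAMB3, LAMB4 and LAMC3; the collagens COL10A1, COL19A1, COL21A1, COL25A1, COL26A1, COL27A1, COL28A1, COL6A6 and COL9A2; and ACAN, BGN, FBLN5, THBS2 and TNR. ACAN encodes aggrecan and COL10A1 the collagen of hypertrophic cartilage. COL10A1 did not exceed 14.9 on any array and ACAN was above background on 1, while the measured cartilage markers MATN1 and SNORC were above background on 0 arrays. LAMA3, a laminin chain of skin, at 48.5, 4.9 and 16.4 in control and 3.4, 3.8 and 6.2 with homocysteine, had the smallest p of all 76 genes, 0.0702, without exceeding background on any array.

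For 19 genes more than 1 probe set was above background on all 6 arrays, which allows the change to be read again from the same RNA. In 10 of them the probe sets disagreed in sign, and the median range of the log2 change over probe sets was 0.16. In COL11A1 the brightest set had means of 276.3 in control and 257.5 with homocysteine, against 197.7 and 311.9 in the next set and 166.6 and 210.7 in a further one. That next set read 224.1, 182.1 and 186.9 in control and 283, 280.1 and 372.7 with homocysteine. Its groups did not overlap, unlike those of the chosen set, with an unadjusted p of 0.0572 and an adjusted p of 0.9999 (limma). The 4 FN1 sets had log2 changes of -0.062, -0.119, -0.24 and 0.02, and the 3 SPARC sets -0.189, -0.108 and -0.726. Of all 212 probe sets of matrix genes, 0 passed an adjusted p of 0.05. At an unadjusted p under 0.05 (limma) there were 8 of the 212, against 3.97% of all probe sets. All 8 were above background on fewer than 3 arrays. Among the 76 chosen probe sets, 19 carry a suffix (_s_at, _x_at or _a_at) that marks probes shared by several transcripts, of the same gene or of others. Whether related chains contribute to any of them was not tested.

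Genes that make, bind and modify matrix gave no call either. Of 24 measured genes of collagen processing, 19 were above background, with 13 positive and 6 negative changes, a median of 0.049 and 0 passing. PLOD2, a collagen lysyl hydroxylase, read 927.8, 847.1 and 862.7 in control and 837.1, 728.3 and 717.9 with homocysteine. PCOLCE2, an enhancer of procollagen cleavage, read 263.7, 206.9 and 224.4 against 153, 164 and 158, and ADAMTS3, a procollagen protease, 75.7, 57.4 and 75 against 137.4, 94.8 and 115.3. These 3 were the genes of the list above background whose groups did not overlap, a state found in 4.21% of all genes above background. ADAMTS3 alone of the 19 had an unadjusted p under 0.05, 0.0466, with an adjusted p of 0.9999 (limma). MIA3, which helps load collagen into transport vesicles, gave 175 in control and 279.5 with homocysteine, and its groups overlapped; LOXL4, a lysyl oxidase, was above background on 3 arrays. PLOD2 lay outside the rule for named genes and was picked after its values were seen.

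Matrix receptors had 7 positive and 11 negative changes among 18 genes above background, with a median of -0.1 and 0 passing. The smallest p belonged to the integrin subunits ITGA9, at 305.9 in control and 171.2 with homocysteine, and ITGAV, at 202 and 150.2, to the hyaluronan receptor CD44, at 92.43 and 126.1, and to the syndecan SDC2, at 6467 and 7879, and the groups overlapped in all 4. Other matrix genes had 5 positive and 8 negative changes among 13, with a median of -0.14 and 0 passing. LTBP2, a fibrillin-binding protein, read 168.9, 128.2 and 161 in control and 218.7, 245.9 and 224 with homocysteine (adjusted p = 0.9999, limma). LTBP1, a related protein that holds latent TGF-beta in the matrix, read 9579.4, 9825.2 and 8272.2 in control and 7735.1, 8005 and 8095.9 with homocysteine. These 2 of the 13 genes did not overlap between the groups, a state found in 4.21% of all genes above background. Neither passed, and LTBP1 was picked after its values were seen. MFAP5, a microfibril protein, gave 134.9 and 111, MATN4, a matrilin, 97.9 and 131.7, and SMOC2 was above background on 3 arrays.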

How the data were processed

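Affymetrix chicken arrays of 1 colour measured total RNA of 6 samples, 3 per group. The deposited values are linear intensities of 38535 probe sets. The submitters' processing notes name RMA, without a version, but the values are linear and share only a trimmed mean (2% at each end), which is not the form of RMA output; the handling of background and probes is not given in the sources used here. Both Cy3 and Cy5 appear among the labels, whose source field names the embryo.

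After 96 control and 57 reporter probe sets were left out, log2 of the 38382 others was tested with limma 3.58.1 in R 4.3.3 (lmFit, eBayes, two-sided, no further normalization), with Benjamini-Hochberg adjustment. The design allowed for a linear table in this way. The number of arrays limits the precision: an exact permutation test of 3 against 3 cannot go below 0.1. In data simulated from the fitted means and spreads, with 200 changed probe sets above background among 38382, the fit recovered 0% of 4-fold, 54.6% of 8-fold and 95.5% of 32-fold changes. The fit pools the spread over all probe sets, dim ones included. Errors are SDs over 3 arrays.

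Symbols came from the platform annotation, in which 27168 probe sets carry 1 symbol, 177 several and 11037 none; RefSeq (GRCg7b) had the same symbol under the gene number for all 76 matrix genes. Members, classes and lists were chosen with earlier results of these data known. Every matrix gene above background on at least 3 arrays is given with values, and of the related lists up to 4 genes with the smallest p. Log2 changes are printed for 28 genes, the 3 with the smallest p per class and 8 well-known ones. Alternatives were the replicate block, dim probe sets left out or raised to background, quantile normalization, centring, other variance models, array weights, the mean of all probe sets, the arrays numbered 1 as a batch or left out, and leaving out each array.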

Additional observations from a re-analysis of the deposited data

How the results depend on the processing

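The number of matrix genes past an adjusted p of 0.05 was 0 in each of the 16 alternatives, and so was the number of probe sets, with 375 to 2107 probe sets and 0 to 2 matrix genes at an unadjusted p under 0.05 (limma). Whether the numbers pair the arrays is not settled: the deviations of same-numbered arrays correlated by 0.172, 0.108 and 0.0486 over all probe sets, and by 0.586, 0.479 and 0.198 over those above background, and the labels name no shared culture or day. Within numbers, FBN1 and POSTN were higher with homocysteine in all 3 (2 of the 54 genes, 3.7%, against 12.3% of all genes above background), and AGRN, COL2A1, FN1, LAMB1, SPON1, TNC and VCAN were lower in all 3 (7 of the 54, against 12.7%). With the replicate block 0 matrix genes passed; the probe sets under an unadjusted p of 0.05 numbered 2023, against 1524 without it, and the median stayed at -0.072, which a block cannot alter. The median of the basement membrane genes was 0.031 with arrays centred on their medians and -0.077 with the mean of all probe sets. Over leaving out each array it ran from -0.066 to 0.09, that of the fibrillar collagens from -0.083 to 0.053 and that of all matrix genes from -0.13 to 0.032. In 117 of 864 recomputed log2 changes of the 54 genes the sign turned, and none had passed. The 864 include alternatives that cannot alter a log2 change, so the share of turned signs is understated. These were the replicate block, the arrays numbered 1 as a batch, dim probe sets left out, and a trended and robust variance model. The mean of all probe sets gave 0.057 for COL13A1, 0.2 for COL1A2, 0.16 for COL2A1, -0.21 for FBLN1, 0.06 for FN1 and -0.077 for LAMC1. Array weights gave 0.028 for FN1, raising dim values to background 0.048 for COL6A1, and the arrays numbered 2 and 3 alone -0.31 for COL4A6 and 0.13 for FBLN2. Leaving out each array gave ranges that crossed 0 for 17 of the 28 printed changes: -0.4 to 0.09 for COL4A1, -0.11 to 0.81 for COL4A6, -0.066 to 0.2 for COL9A3, -0.85 to 0.18 for DCN, -0.8 to 0.35 for FBLN2, -0.4 to 0.3 for FN1, -0.92 to 0.32 for LUM, -0.49 to 0.036 for COL22A1, -0.066 to 0.25 for COL4A2, -0.21 to 0.42 for LAMC1, -0.61 to 0.093 for SPARC, -0.26 to 0.06 for COL1A1, -0.41 to 0.02 for COL1A2, -0.42 to 0.00043 for COL2A1, -0.48 to 0.12 for COL13A1, -0.58 to 0.013 for VCAN and -0.055 to 0.22 for FBLN1. The other 11 kept their sign, with ranges of 0.27 to 0.75 for COL20A1, 0.1 to 0.38 for COL24A1, -0.49 to -0.02 for COL6A1, -0.61 to -0.14 for COL6A2, 0.29 to 0.9 for FBN1, -0.59 to -0.13 for LAMA1, -0.27 to -0.06 for LAMB1, 0.32 to 1.18 for LAMB2, 0.18 to 0.65 for POSTN, -0.93 to -0.19 for SPON1 and -0.67 to -0.04 for THBS1. LAMB2 was 0.07 with the mean of all probe sets. For these turns of sign the cause was not tested.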
